A study of Homo sapiens with 10 samples.

Results

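The 9 genes described here encode the transcription factor NRF2 (NFE2L2), its close relative NFE2L1, the inhibitors KEAP1 and BACH1, the small MAF partners MAFF, MAFG and MAFK, the KEAP1-binding autophagy receptor p62 (SQSTM1) and the NRF2-responsive gene OSGIN1. They were chosen by symbol, and 9 of the 16734 genes in the deposited table carried one of these symbols. RNA had been sequenced from MIA PaCa-2, an established human pancreatic ductal adenocarcinoma cell line, with 5 libraries from cells exposed to 10 µM hydroxyprogesterone caproate (HPC, a synthetic progestin ester) for 24 h and 5 from control cells that received the same volume of its solvent DMSO for as long. Both groups grew in DMEM with fetal bovine serum, penicillin and streptomycin. Each group's libraries are labelled as biological replicates, without a day or batch of culture. The p-values therefore reflect variation among 10 libraries of 1 cell line.

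NRF2 is a basic leucine zipper factor that is made continuously and, in unstressed cells, held by KEAP1, which presents it to a CUL3 ubiquitin ligase for destruction by the proteasome. Electrophiles and oxidants modify cysteines of KEAP1, and p62 can displace NRF2 from KEAP1, after which NRF2 pairs with a small MAF protein on antioxidant response elements of genes for glutathione synthesis, thioredoxin recycling, NADPH supply and iron storage. BACH1 pairs with the same small MAFs and represses many of the same genes until heme releases it. Most of this control acts on protein stability and location, which RNA levels do not measure.

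All 9 genes had higher transcript levels after 24 h in HPC, and in each of them the lowest HPC library lay above the highest DMSO library. The differences ranged from 1.43-fold for KEAP1 to 9.03-fold for OSGIN1, with SQSTM1 at 4.28-fold, NFE2L1 at 3.23-fold and NFE2L2 at 2.45-fold (limma, Benjamini-Hochberg adjusted over 9150 tested genes, adjusted p of 3.51e-08 or less for all 9). The median log2 fold change of the 9 was 1.43, against -0.01 over all tested genes. HPC changed much of the transcriptome: 42.9% of the tested genes were higher, 44.8% lower, and 38.5% were higher with no overlap between the groups. That all 9 were higher is to be read against this background, and the 9 were chosen with earlier results of these data known. At least 2-fold higher levels were found for 6 of the 9 genes and for 7.54% of the tested genes. OSGIN1, which is in all these counts, reached 1 FPKM in HPC libraries only. The filter for testing therefore fixed its higher level without overlap in advance.

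**Figure D1:**
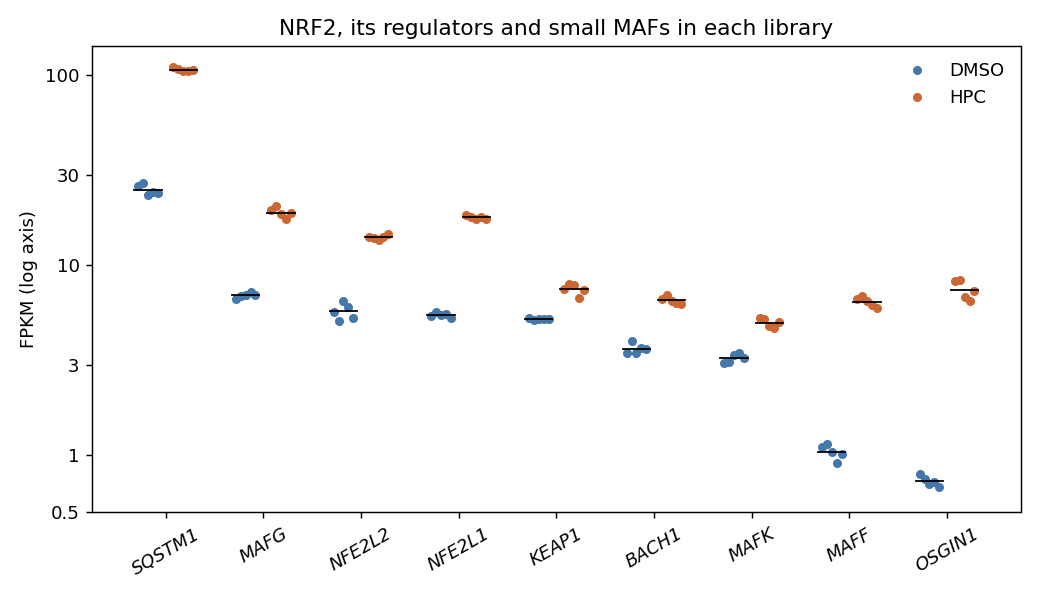
FPKM of each gene in each library on a log axis, with DMSO libraries in blue, HPC libraries in orange and the group mean as a black line. In every gene the 5 HPC values lie above the 5 DMSO values, and the gap is widest for OSGIN1 (0.731 to 7.43 FPKM) and narrowest for KEAP1 (5.20 to 7.50 FPKM).

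Levels are in FPKM, which counts fragments relative to gene length and to the size of the library, so they are shares of a library and not amounts per cell, and more RNA per cell cannot be told apart from more cells making it. Reads recovered from the deposited values summed to between 71602736 and 82218527 per DMSO library and between 65851176 and 74477071 per HPC library. Mitochondrially encoded transcripts held 21.9% to 23.8% of the FPKM in DMSO and 13.8% to 15.9% in HPC. When libraries were scaled to the same sum over all other genes, the median log2 fold change of all genes moved to -0.19 and the split of called genes from 3922 higher and 4099 lower to 2929 and 5077. The 9 genes stayed higher on that scale, by 0.35 for KEAP1 to 3.02 for OSGIN1 (log2 fold change). As a check of the labelled cell type, the epithelial keratins KRT8 and KRT18 measured 51.8 and 114 FPKM on average in DMSO (n = 5), with the ductal genes KRT19 and SOX9 at 24.0 ± 1.69 and 24.7 ± 0.378 FPKM. EPCAM and CDH1 were near 0 (0.002 and 0.001 FPKM), and the mesenchymal gene VIM stood at 695 ± 14.9 FPKM. In HPC these 4 epithelial genes measured 57.7, 149.9, 10.1 and 8.72 FPKM on average and VIM 333 FPKM, while the summed 8 epithelial and ductal markers ran from 206.8 to 224.3 FPKM in DMSO and from 221.0 to 238.7 FPKM in HPC. KRT8 and KRT18 make up most of this sum, and 2 low members had smaller means in HPC, MUC1 with 0.808 and 0.0649 FPKM and KRT7 with 0.226 and 0.0352 FPKM in DMSO and HPC. Markers of other cells were low: PTPRC was listed at 0 in 8 of 10 libraries, PECAM1 in 7 and DCN in 9. The sum of 4 fibroblast markers ran from 0.232 to 0.321 FPKM in DMSO and from 0.0823 to 0.116 FPKM in HPC. CD68, which tumour lines can express, averaged 2.75 and 9.77 FPKM, and the endothelial CDH5 1.42 and 0.0124 FPKM. The part of these differences in the results was not tested.

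RefSeq (GRCh38.p14) gave 16 promoter windows for 8 of the 9 genes, each running from 250 bases before to 50 bases after an annotated start. MAFK had none in the table. The windows were searched on both strands for the antioxidant response element core TGACNNNGC, the AP-1 motif TGANTCA and the C/EBP-ATF composite TGATGNAA. The core was found in 2 windows (KEAP1 and MAFF) and the AP-1 motif in 2 (BACH1 and OSGIN1), and the composite in 0. Among all 35116 RefSeq windows the core occurs in 13.3%, the AP-1 motif in 7.71% and the composite in 3.62%. The 250 upstream bases of the 4 windows with a match are shown because they include the gene that rose most, OSGIN1, and the one that rose least, KEAP1. Capitals mark the matched motifs, and each sequence is written along the gene's own strand. They lie at chr16:83952990-83953239 (OSGIN1, plus strand), chr22:38201744-38201993 (MAFF, plus strand), chr21:29298672-29298921 (BACH1, plus strand) and chr19:10502772-10503021 (KEAP1, minus strand).
OSGIN1: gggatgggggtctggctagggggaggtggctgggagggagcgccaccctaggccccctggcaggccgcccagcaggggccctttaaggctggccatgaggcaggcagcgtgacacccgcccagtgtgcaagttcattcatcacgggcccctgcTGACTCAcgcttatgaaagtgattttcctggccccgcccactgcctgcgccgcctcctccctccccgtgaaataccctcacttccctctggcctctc
MAFF: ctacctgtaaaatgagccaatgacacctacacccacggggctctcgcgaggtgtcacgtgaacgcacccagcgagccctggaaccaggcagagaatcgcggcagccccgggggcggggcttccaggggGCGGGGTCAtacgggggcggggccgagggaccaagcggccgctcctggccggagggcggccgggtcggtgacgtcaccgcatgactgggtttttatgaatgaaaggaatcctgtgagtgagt
BACH1: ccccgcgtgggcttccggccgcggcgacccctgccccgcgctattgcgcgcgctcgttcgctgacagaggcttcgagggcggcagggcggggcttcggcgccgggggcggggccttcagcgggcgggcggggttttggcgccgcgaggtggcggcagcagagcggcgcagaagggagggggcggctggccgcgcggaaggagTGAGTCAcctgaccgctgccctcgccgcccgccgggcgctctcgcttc
KEAP1: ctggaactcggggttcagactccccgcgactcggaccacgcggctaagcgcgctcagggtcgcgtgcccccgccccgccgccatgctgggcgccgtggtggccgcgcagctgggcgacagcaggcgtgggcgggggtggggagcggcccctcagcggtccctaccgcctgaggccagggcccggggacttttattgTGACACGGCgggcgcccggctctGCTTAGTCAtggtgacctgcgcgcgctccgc
In OSGIN1 the AP-1 match TGACTCA begins 97 bases before the start, and in BACH1 the match TGAGTCA begins 48 bases before it. MAFF holds 1 core on the minus strand of the gene, 122 bases before the start. KEAP1 holds 2 cores, 1 on each strand, 54 and 31 bases before the start of the window's transcript. A match is a run of letters, and binding was not measured in these samples.

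Among the activators, NFE2L2 (ENSG00000116044, chromosome 2, 177227595 to 177392697, minus strand, GENCODE 29 on GRCh38) measured 5.66, 5.11, 6.49, 6.04 and 5.25 FPKM in DMSO replicates 1 to 5. In HPC replicates 1 to 5 it measured 14.0, 13.9, 13.6, 14.2 and 14.6 FPKM. The HPC libraries were tightly grouped, while the DMSO libraries spread more, with replicate 3 highest and replicate 2 lowest, and the groups lay far apart. The means were 5.71 ± 0.569 and 14.1 ± 0.352 FPKM (SD, n = 5), a log2 fold change of 1.29 ± 0.056 SE, or 2.45-fold with a 95% interval of 2.25 to 2.66 (limma, adjusted p = 9.56e-11). It moved from the 63.0th percentile of tested genes by level in DMSO to the 84.9th in HPC.

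NFE2L1 (ENSG00000082641, chromosome 17, 48048329 to 48061487, plus strand) encodes a factor that is anchored in the endoplasmic reticulum membrane, is released when the proteasome is overloaded and then drives proteasome genes. Its levels in DMSO replicates 1 to 5 were 5.39, 5.68, 5.47, 5.52 and 5.27 FPKM. The HPC libraries held 18.4, 18.0, 17.5, 17.9 and 17.5 FPKM in the same order. Within each group these values hardly differed, and every HPC library stood more than 3-fold above every DMSO library. The log2 fold change was 1.69 ± 0.027 SE, which is 3.23-fold with a 95% interval of 3.10 to 3.36 (limma, adjusted p = 9.58e-15). In DMSO the levels of NFE2L2 and NFE2L1 overlapped, and in HPC all NFE2L1 values lay above all NFE2L2 values.

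The KEAP1 gene (ENSG00000079999, chromosome 19, 10486120 to 10503741, minus strand), which encodes the adaptor that keeps NRF2 low, measured 5.25, 5.15, 5.19, 5.20 and 5.23 FPKM in DMSO replicates 1 to 5. In HPC replicates 1 to 5 it measured 7.51, 7.99, 7.83, 6.74 and 7.42 FPKM. The DMSO libraries were almost level, HPC replicate 4 was the lowest of its group, and the groups did not overlap. The log2 fold change of 0.52 ± 0.040 SE (1.43-fold, 95% interval 1.35 to 1.52, limma, adjusted p = 3.51e-08) was the smallest of the 9. Its percentile among the log2 fold changes of all tested genes was 80.5.

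BACH1 (ENSG00000156273, chromosome 21, 29194071 to 29630751, plus strand), the heme-sensing repressor, measured 3.47, 3.98, 3.44, 3.65 and 3.63 FPKM in DMSO replicates 1 to 5. Its HPC values were 6.63, 6.93, 6.48, 6.36 and 6.27 FPKM. Replicate 2 was the highest library in both groups, and the lowest HPC value was well above the highest DMSO value. The means rose from 3.63 ± 0.214 to 6.53 ± 0.260 FPKM (SD, n = 5), a log2 fold change of 0.83 ± 0.042 SE (1.78-fold, 95% interval 1.67 to 1.89, limma, adjusted p = 4.11e-10).

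The fold changes of both inhibitors were smaller than those of the activators, and ratios of levels within a library put the genes side by side. NFE2L2 over KEAP1 was 1.08, 0.992, 1.25, 1.16 and 1.00 in DMSO replicates 1 to 5 and 1.87, 1.74, 1.74, 2.10 and 1.97 in HPC replicates 1 to 5. The ratio was near even in DMSO and higher in all HPC libraries, with means of 1.10 ± 0.110 and 1.88 ± 0.153 (SD, n = 5). NFE2L2 over BACH1 was 1.63, 1.28, 1.89, 1.66 and 1.45 in DMSO and 2.12, 2.01, 2.10, 2.23 and 2.33 in HPC. Here the groups came closer, since DMSO replicate 3 at 1.89 was only a little under HPC replicate 2 at 2.01. These ratios do not depend on the scaling of a library, but their size depends on the gene lengths behind the FPKM. No test was run on them.

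The small MAFs lack a transactivation domain and act as obligate partners of NRF2, NFE2L1 and BACH1, or as repressing homodimers. MAFF (ENSG00000185022, chromosome 22, 38200767 to 38216511, plus strand) measured 1.11, 1.14, 1.04, 0.905 and 1.01 FPKM in DMSO replicates 1 to 5. With HPC it measured 6.64, 6.91, 6.49, 6.20 and 5.96 FPKM. A gene near the bottom of the tested range in every DMSO library (percentile 4.52) thus reached the 66.4th percentile in HPC. Its log2 fold change was 2.52 ± 0.058 SE (5.75-fold, 95% interval 5.26 to 6.27, limma, adjusted p = 1.89e-13). With 1 FPKM added instead of 0.1 before taking logs the fold was 3.65, since the added value weighs more on low levels.

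MAFG (ENSG00000197063, chromosome 17, 81918270 to 81927714, minus strand), which NRF2 itself can induce, was the most abundant small MAF. In DMSO replicates 1 to 5 it stood at 6.63, 6.91, 6.95, 7.25 and 6.98 FPKM. In HPC it stood at 19.4, 20.4, 18.6, 17.5 and 18.8 FPKM. HPC replicate 2 was highest and replicate 4 lowest, both far from the DMSO libraries (log2 fold change 1.43 ± 0.038 SE, 2.702-fold, 95% interval 2.55 to 2.86, limma, adjusted p = 7.56e-13). MAFK (ENSG00000198517, chromosome 7, 1530714 to 1543043, plus strand) was at 3.07, 3.09, 3.38, 3.45 and 3.25 FPKM in DMSO and at 5.28, 5.23, 4.77, 4.65 and 5.01 FPKM in HPC. Its rise was the smallest of the small MAFs, without overlap of the groups (log2 fold change 0.60 ± 0.045 SE, 1.52-fold, 95% interval 1.42 to 1.63, limma, adjusted p = 2.39e-08).

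Together the small MAF transcripts summed to 11.2 ± 0.292 FPKM in DMSO and 30.4 ± 1.60 FPKM in HPC (SD, n = 5). MAFG made up 61.1% to 62.5% of this sum in the DMSO libraries and 61.8% to 63.1% in the HPC libraries, ranges that overlap. The other two changed places: the share of MAFF was 7.80% to 10.3% in DMSO and 20.0% to 21.8% in HPC, while that of MAFK was 27.8% to 29.7% in DMSO and 16.0% to 16.8% in HPC. MAFF was below MAFK in every DMSO library and above it in every HPC library. The sum and the shares depend on the gene lengths behind the FPKM, and they are not shares of reads or molecules. Mean reads of MAFF, MAFG and MAFK were 1264, 3820 and 1645 per DMSO library. In HPC they were 7211, 9609 and 2326, so the near-constant share of MAFG holds for FPKM only.

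**Figure D2:**
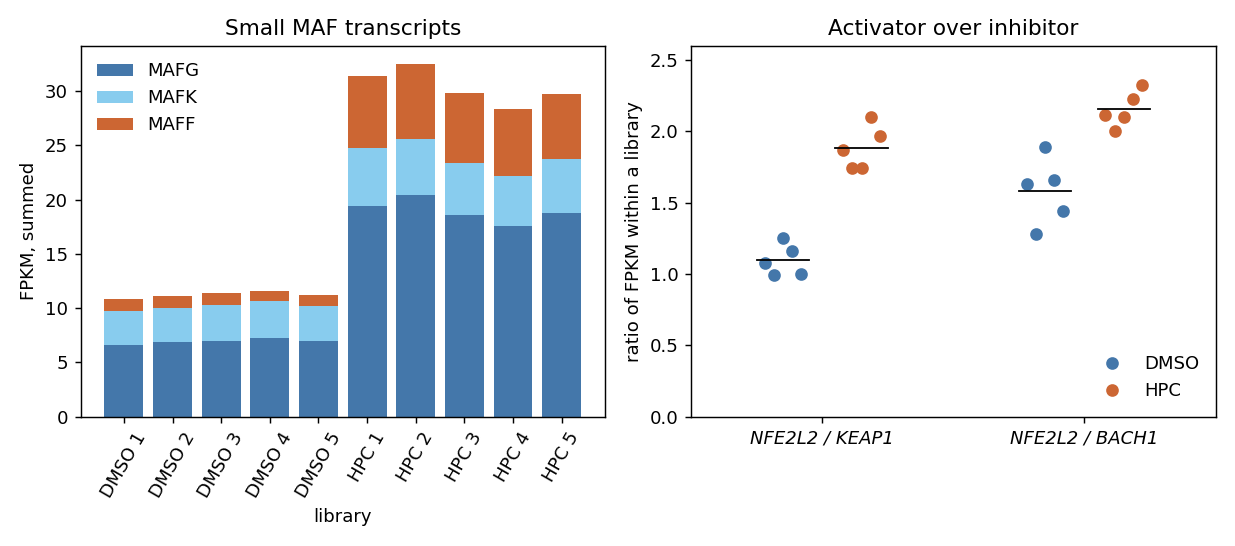
Left, FPKM of MAFG, MAFK and MAFF stacked for each library. Right, NFE2L2 over KEAP1 and NFE2L2 over BACH1 in each library, with group means as lines. The stacks rise from between 10.8 and 11.6 FPKM to between 28.4 and 32.5 FPKM with the MAFG part in proportion, and both ratios are higher in HPC, with the narrower gap for BACH1.

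SQSTM1 (ENSG00000161011, chromosome 5, 179806398 to 179838078, plus strand) encodes p62, which carries ubiquitinated cargo to autophagosomes, binds KEAP1 and is itself an NRF2 target gene. It was the most abundant of the 9 in both groups. DMSO replicates 1 to 5 held 26.2, 27.1, 23.3, 24.3 and 24.1 FPKM. HPC replicates 1 to 5 held 111, 108, 105, 106 and 106 FPKM. The HPC values were close together, and the lowest was nearly 4 times the highest DMSO value. The log2 fold change was 2.10 ± 0.038 SE (4.28-fold, 95% interval 4.05 to 4.53, limma, adjusted p = 2.17e-14), and the values rest on 30962 to 35538 reads per DMSO library and 124945 to 140469 per HPC library.

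OSGIN1 (ENSG00000140961, chromosome 16, 83948282 to 83966332, plus strand), an oxidative stress-induced growth inhibitor gene, had the largest difference. It measured 0.795, 0.752, 0.708, 0.719 and 0.681 FPKM in DMSO replicates 1 to 5. In HPC it measured 8.22, 8.34, 6.78, 6.48 and 7.34 FPKM. HPC replicates 1 and 2 were above the other HPC libraries, and all were far above DMSO, where the gene was the lowest of the 9. The log2 fold change was 3.17 ± 0.069 SE (9.03-fold, 95% interval 8.14 to 10.0, limma, adjusted p = 1.23e-13), rank 53 from the top of the 9150 tested genes. OSGIN1 passed the filter of at least 1 FPKM in 5 libraries through its HPC libraries alone, so that it had to differ to be tested. It was counted from 435 to 527 reads per DMSO library and 3812 to 5081 per HPC library, and the ratio of the mean FPKM was 10.2. With 1 FPKM added before taking logs its fold was 4.85, and 10.1 with limma's voom on the recovered reads.

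**Figure D3:**
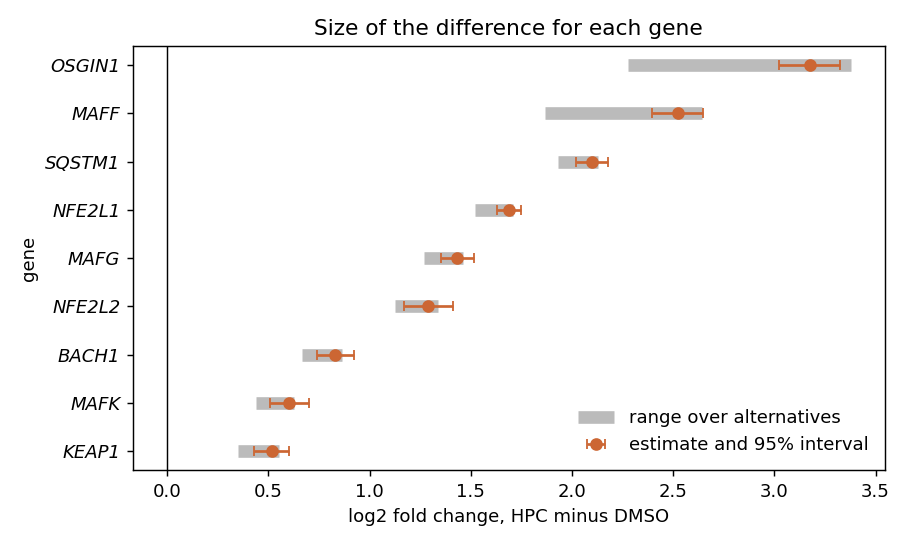
Log2 fold change (HPC minus DMSO) of each gene with its 95% interval in orange and the range over the alternative settings as a grey bar. All estimates and grey bars lie above 0, from 0.52 for KEAP1 to 3.17 for OSGIN1, and the bars of OSGIN1 and MAFF reach furthest below their own estimates, to 2.28 and 1.87.

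Ordered by level per length, the DMSO libraries ran from SQSTM1 (25.0 FPKM) through MAFG, NFE2L2, NFE2L1, KEAP1, BACH1 and MAFK to MAFF and OSGIN1 (0.731 FPKM). Of these neighbours, the ranges of NFE2L2 and NFE2L1 and of BACH1 and MAFK overlapped. In HPC the order was SQSTM1, MAFG, NFE2L1, NFE2L2, KEAP1, OSGIN1, BACH1, MAFF and MAFK, and the pairs MAFG and NFE2L1, KEAP1 and OSGIN1, OSGIN1 and BACH1, and BACH1 and MAFF overlapped. In FPKM, SQSTM1 and MAFG kept their places, NFE2L1 and NFE2L2 swapped, and OSGIN1 climbed from the bottom to the level of KEAP1. This order depends on the gene lengths behind the FPKM. By mean reads per library NFE2L1 was above NFE2L2 in both groups, with 13606 and 7957 in DMSO and 40921 and 17972 in HPC. MAFG, with 3820 reads in DMSO and 9609 in HPC, was below both.

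**Figure D4:**
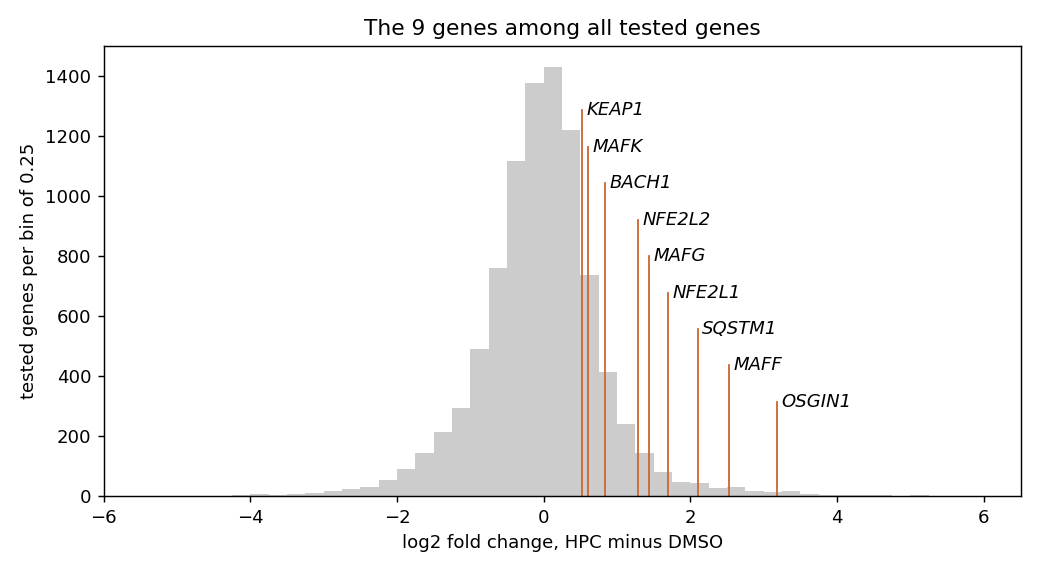
Number of tested genes per log2 fold change bin of 0.25 (grey, all 9150 genes), with the 9 genes marked by orange lines. KEAP1 and MAFK sit on the shoulder of the distribution at percentiles 80.5 and 83.8, while SQSTM1, MAFF and OSGIN1 lie at 98.2 to 99.4.

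Several of these genes share exon bases with neighbours in GENCODE 29, and whether the counting used strand is not given in the sources used here. SQSTM1 shares 20.7% of its exon bases with MRNIP on the opposite strand, a gene at 0.914 ± 0.0720 FPKM under DMSO and 2.18 ± 0.362 FPKM under HPC (SD, n = 5). MAFK shares 18.1% with TMEM184A on the opposite strand, which was at 0.310 ± 0.0460 FPKM in DMSO and 0.052 ± 0.011 FPKM in HPC. NFE2L2 shares 17.6% with the non-coding AC019080.1 and OSGIN1 13.9% with AC009119.2, both on the same strand and not analysed here. The part of such reads in the levels was not tested.

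The wider pathway was described by lists, whose counts are given beside the 42.9% higher and 44.8% lower over all tested genes. Counts on the non-mitochondrial scale stand beside 2929 higher and 5077 lower of the 9186 genes tested on that scale. Of 35 genes listed as NRF2 antioxidant and detoxification targets, 28 were tested, and their median log2 fold change was 0.43, against -0.01 over all tested genes. A higher level was called for 20 and a lower one for 4, and PRDX1, ABCC1, ABCC2 and AKR1B1, named after their values were seen, missed the threshold. The largest rises were those of HMOX1, heme oxygenase (log2 fold change 3.90), SRXN1, sulfiredoxin, from 31.4 ± 0.544 to 309 ± 24.7 FPKM (SD, n = 5), the cystine transporter gene SLC7A11 from 1.50 ± 0.169 to 10.1 ± 0.202 FPKM, and GCLC, from 1.54 ± 0.065 to 9.15 ± 0.361 FPKM. The genes that fell most were TKT (-0.68) and TALDO1 (-0.47), both of the non-oxidative pentose phosphate branch, and the glutathione transferase gene GSTM3 (-0.62), as log2 fold changes. The remaining gene called lower was NQO1, named after its value was seen. It fell from 115 ± 2.18 to 96.4 ± 2.41 FPKM (SD, n = 5), a log2 fold change of -0.25 (limma, adjusted p = 1.54e-07). On the non-mitochondrial scale 17 genes instead of 20 were higher and 7 instead of 4 were lower.

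Of 8 genes known to be repressed by BACH1, most of them for heme and iron, 7 were tested, and 6 were higher and 1 lower. The 6 higher genes are also in the list of NRF2 targets above, so they are not a separate result. The lower one, FECH, is not in that list. Besides HMOX1 the higher ones were the ferritin genes FTL (log2 fold change 1.48) and FTH1 (1.39), both with processed pseudogenes that can share reads (as has PTMA), the heme transporter gene SLC48A1 (0.63), ME1 (0.40) and BLVRB (0.26). FECH, whose enzyme inserts iron into protoporphyrin to form heme, fell from 3.78 ± 0.0408 to 2.54 ± 0.0722 FPKM (SD, n = 5). The iron exporter gene SLC40A1 was not tested, at 0.053 and 0.068 FPKM. Of the 3 genes for ubiquitin ligases of BACH1, RBCK1 rose from 2.55 ± 0.0918 to 5.74 ± 0.306 FPKM and FBXL17 fell from 2.44 ± 0.0888 to 1.00 ± 0.137 FPKM. FBXO22 had a log2 fold change of 0.18 (limma, adjusted p = 0.000104), which did not pass on the non-mitochondrial scale (0.02, adjusted p = 0.52).

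Genes acting on NRF2 stability, among them those of ligases and kinases, were split: of 14 tested, 6 were higher and 7 lower, around a median log2 fold change of -0.01. BTRC, named after its value was seen, missed the threshold. On the non-mitochondrial scale 3 were higher instead of 6. RBX1, the RING subunit of the CUL3 and CUL1 ligases, fell from 7.60 ± 0.240 to 4.12 ± 0.315 FPKM (SD, n = 5), and CAND1, which exchanges their substrate adaptors, from 11.9 ± 0.273 to 7.33 ± 0.190 FPKM. SYVN1, an endoplasmic reticulum ligase, rose by 0.94 on the log2 scale, USP11 by 0.59 and the kinase gene GSK3A by 0.55. GSK3B and CUL3, named after their values were seen, were called lower, with log2 fold changes of -0.28 and -0.10.

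Among 9 genes whose proteins compete with NRF2 for KEAP1 or protect NRF2 from it, 8 were tested, with 1 higher and 4 lower. CDKN1A rose from 0.640 ± 0.0723 to 6.63 ± 0.546 FPKM (SD, n = 5), passing the filter through HPC libraries alone. PTMA fell from 203 ± 4.28 to 75.1 ± 3.06 FPKM, BRCA1 by 0.59 on the log2 scale (passing the filter through DMSO libraries alone), NIBAN2 by 0.37 and AMER1 by 0.27. DPP3, PALB2 and PGAM5 did not pass (log2 fold changes of -0.05, -0.06 and -0.06, adjusted p = 0.313, 0.311 and 0.0605), but all 3 passed as lower on the non-mitochondrial scale (-0.21, -0.22 and -0.22), where 7 of the 8 were lower. PGAM5 also passed as lower after rescaling to TPM (adjusted p = 0.0226), after quantile normalization (0.000348), and without DMSO replicate 2 (0.0235), HPC replicate 2 (0.0431) or HPC replicate 3 (0.0472), all from limma. IKBKB was under the filter, at 0.598 and 0.529 FPKM.

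Relatives of the 9 genes moved in both directions. NFE2L3, another NRF-type factor, fell from 9.69 ± 0.490 to 3.68 ± 0.348 FPKM (SD, n = 5), with a log2 fold change of -1.37 ± 0.058 SE (limma, adjusted p = 6.62e-11). By mean FPKM it had stood above NFE2L2 and NFE2L1 in DMSO and was below both in HPC. In reads NFE2L3 was below both in DMSO already, with 4201 to 4726 per library. NFE2L2 had 6966 to 9938 and NFE2L1 12589 to 15001, so the change of place depends on the gene lengths behind the FPKM. OSGIN2, the paralog of OSGIN1, rose from 1.98 ± 0.106 to 4.48 ± 0.209 FPKM, and the large MAF gene MAFA from 1.32 ± 0.210 to 1.95 ± 0.134 FPKM. NFE2, BACH2 and NRL were under the filter, with means of at most 0.089 FPKM in either group, and MAF was not analysed here.

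Of 10 genes that process or modify the NFE2L1 protein, 8 were tested, with 6 higher and 2 lower. Relative to the non-mitochondrial sum, 5 were higher and 2 lower. HERPUD1 rose from 2.27 ± 0.0901 to 8.89 ± 0.987 FPKM (SD, n = 5) and SEL1L, the scaffold of the same membrane ligase as SYVN1, from 6.02 ± 0.143 to 15.7 ± 0.659 FPKM. NGLY1, which removes N-glycans from NFE2L1, rose by 0.54 on the log2 scale and OGT by 0.33. VCP, the extracting ATPase, fell by 0.17 and HCFC1 by 0.43. DDI2, the protease that cleaves NFE2L1, had a log2 fold change of 0.12 (limma, adjusted p = 0.00247) that turned to -0.040 on the non-mitochondrial scale. FBXW7 was under the filter, at 0.446 and 0.610 FPKM, and DDI1 was not analysed here.

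Proteasome subunit genes, the classical targets of NFE2L1, differed less between the groups than NFE2L1 itself, whose log2 fold change was 1.69. All 31 were tested, and their median log2 fold change was 0.10, with 16 called higher, 8 called lower and 7 on neither side. The largest changes were PSMC4, from 11.9 ± 0.381 to 21.1 ± 0.969 FPKM (SD, n = 5), and PSMA2, from 20.1 ± 0.666 to 12.6 ± 0.812 FPKM. PSMD7 and PSMD14 rose by 0.45 and 0.42 on the log2 scale, whereas PSMA6 and PSMB5 fell by 0.36 and 0.34. The balance of this list depends on the scale, as 6 were higher and 16 lower relative to the non-mitochondrial sum. Over all genes tested on that scale the balance moved the same way, to 2929 higher and 5077 lower.

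Around SQSTM1, 17 of 18 genes for autophagy receptors and p62 partners were tested, with 13 higher and 4 lower (median log2 fold change 0.36). Relative to the non-mitochondrial sum, 10 were higher and 4 lower. MAP1LC3B, whose protein coats autophagosomes and is bound by p62, rose from 15.6 ± 0.455 to 86.2 ± 3.77 FPKM (SD, n = 5). MAP1LC3A rose from 4.26 ± 0.122 to 12.9 ± 0.747 FPKM, the receptor gene TAX1BP1 from 7.98 ± 0.129 to 17.6 ± 0.257 FPKM and GABARAPL1 from 1.17 ± 0.0774 to 2.65 ± 0.102 FPKM. MAP2K5, WDR81 and GABARAP fell by 0.78, 0.48 and 0.44 on the log2 scale, and so did GABARAPL2, named after its value was seen, by 0.25. TFEB was under the filter.

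Of 12 genes for nuclear coactivators and repressors of NRF2, 11 were tested, with 8 higher and 3 lower. Relative to the non-mitochondrial sum, 6 were higher and 3 lower. ATF3, a stress-induced factor, had the largest log2 fold change, 5.51, with 0.346 ± 0.0672 FPKM in DMSO and 20.1 ± 1.25 FPKM in HPC (SD, n = 5), and passed the filter through HPC libraries alone. ATF4, JUN and JUND rose by 2.16, 2.13 and 1.60 on the log2 scale. The acetyltransferase gene CREBBP rose by 0.44. EP300 had a log2 fold change of 0.16 (limma, adjusted p = 0.00025) that turned to -0.0079 on the non-mitochondrial scale, and NCOR1 one of 0.17 that did not pass there (0.01). RXRA, whose protein binds and represses NRF2, fell from 5.43 ± 0.231 to 2.37 ± 0.0580 FPKM (SD, n = 5), and CHD6 by 0.74 on the log2 scale. RARA was under the filter, at 0.466 and 0.896 FPKM.

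**Figure D5:**
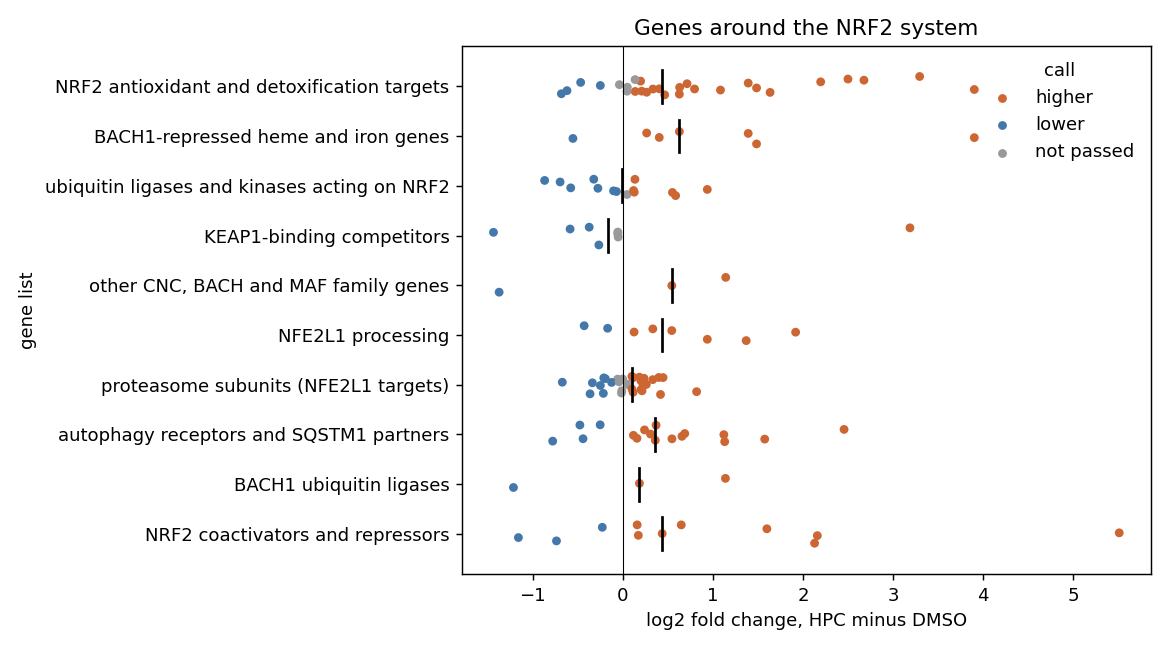
Log2 fold change (HPC minus DMSO) of each tested gene in 10 lists, coloured by call (orange higher, blue lower, grey not passed), with the list median as a black line. Points of the antioxidant target list reach to 3.90 on the right, whereas the 31 proteasome subunits stay between -0.67 and 0.82.

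By the root mean square difference of log2 values relative to the DMSO mean over the 10 libraries, the genes closest to NFE2L2 were BCL2L1 (0.066), HEG1 (0.077) and LARP6 (0.081). BCL2L1 encodes the survival factor BCL-XL. Among those closest to BACH1 were TVP23B (0.048) and KLF15 (0.052), and among those closest to SQSTM1 were CDCP1 (0.062) and GARS1 (0.065). GARS1 encodes the glycyl-tRNA synthetase. The measure mostly reflects a group difference of like size.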

How the data were processed

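Per the labels' protocols, poly(A) RNA of 5 DMSO and 5 HPC samples was sequenced in paired ends (Illumina NovaSeq). Tools named in the submitters' processing notes are fastp 0.23.2, STAR 2.7.7a and edgeR, and the build is GRCh38.p13. How genes were counted, annotated and filtered is not given in the sources used here. FPKM values, as deposited by the authors, cover 16734 genes. Values of all 15208 genes above 0 in at least 3 libraries were whole multiples of 1 read within 0.0001, which gave the reads quoted. Groups follow the sample titles.

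Values were taken as log2(FPKM + 0.1), a scale that understates the fold change of low genes. A gene was tested if 5 or more libraries held 1 FPKM or more (9150 genes), with limma 3.58.1 under R 4.3.3. Variances were moderated with the trend and robust options, p-values are two-sided and Benjamini-Hochberg adjusted over all tested genes, and the threshold was 0.05. On simulated data for HPC against DMSO over 8904 genes, 50 genes were changed at each of 4 sizes (1.3-, 1.5-, 2- and 4-fold). Of these, 100% were recovered at each size, and 7 of the 207 calls over all sizes were false. The simulation gave every gene the same coefficient of variation, 3.65%, and changed only genes with a DMSO mean of at least 2 FPKM. It therefore does not cover lower genes such as MAFF and OSGIN1, or data in which most genes differ. Named were the 9 genes, every gene of lists of at most 12, and of longer lists the 4 called genes with the largest absolute change and up to 3 called against the majority. A few genes that this rule selects are not reported here. The members and lists were chosen with earlier results of these data known. Library alternatives, scalings, filters and pseudocounts were tried, and voom on recovered reads was added after seeing the data. Computations used Python 3.11.15, pandas 2.3.3, NumPy 2.4.6 and matplotlib 3.10.9.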

Additional observations from a re-analysis of the deposited data

How the results depend on the processing

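The log2 fold changes of the 9 genes kept their direction and passed the threshold in all 174 alternative values computed. They ranged from 1.12 to 1.34 for NFE2L2, 1.52 to 1.71 for NFE2L1, 0.35 to 0.55 for KEAP1, 0.67 to 0.86 for BACH1, 1.87 to 2.64 for MAFF, 1.27 to 1.46 for MAFG, 0.44 to 0.63 for MAFK, 1.93 to 2.13 for SQSTM1 and 2.28 to 3.38 for OSGIN1. OSGIN1 was not tested when any HPC library was left out, because it then reached 1 FPKM in 4 libraries only, and MAFK was not tested with a filter of at least 5 FPKM. That filter left fewer genes to test, with 1969 higher and 1836 lower. The replicate numbers are shared between the groups, but the correlation of same-numbered libraries' deviations from their group means ran from -0.06 to 0.20, and 2 of 5 DMSO libraries correlated best with their own number, so the numbers were not taken to pair the libraries. With a replicate block, 3892 genes were higher and 4077 lower, 9 of the 9 genes were higher, and 21 NRF2 target genes instead of 20 were higher. On the non-mitochondrial sum DDI2 turned to -0.040 and EP300 to -0.0079, and the cause was not tested. CDKN1A and ATF3, which pass the filter through HPC libraries alone, were not tested when any of these was left out. With no filter, 2 family genes instead of 1 were lower. OSGIN1 in DMSO rests on 435 to 527 reads per library, for which counting alone gives a coefficient of variation of 4.54%. Intervals cover the spread between libraries of 1 cell line.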

Other observations

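HPC replicate 2 was the highest library for 5 of the 9 genes and the lowest for 0, and HPC replicate 4 the highest for 0 and the lowest for 4 (KEAP1, MAFG, MAFK and OSGIN1). DMSO replicate 2 was the highest for 4 of the 9 and the lowest for 2, and DMSO replicate 5 the highest for 0 and the lowest for 2.

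KEAP1 had a coefficient of variation of 0.727% over the 5 DMSO libraries, below the 1.49% that counting 4491 reads per library gives, and of 6.40% over the HPC libraries. NFE2L2 went the other way, with 9.97% in DMSO and 2.50% in HPC. No test was run on these spreads, which were noticed in the data.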
